A study of Mus musculus with 135 samples.

Results

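The genes described here encode the proteasome and the proteins that assemble and activate it. They were chosen by name alone, as the genes of the deposited count table whose symbols start with Psma, Psmb, Psmc, Psmd, Psme or Psmg followed by a digit, without pseudogenes and joined names. This gave 49 of 15181 genes. The name rule also took Psmc3ip, a factor of meiotic recombination that is named for its binding to a proteasome ATPase and is no proteasome subunit.

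The proteasome degrades proteins that carry a ubiquitin chain. Its barrel-shaped core particle is made of outer alpha rings, which gate the entrance, and inner beta rings, which hold the proteolytic sites. A regulatory particle on the end of the barrel recognises the ubiquitin chain, removes it and unfolds the protein with a ring of ATPases. In blood cells, and in other cells under interferon, the catalytic beta subunits Psmb5, Psmb6 and Psmb7 are replaced by Psmb8, Psmb9 and Psmb10, which gives the immunoproteasome.

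Haematopoietic stem cells (HSCs) were sorted from the bone marrow of C57BL/6 mice that all carried a Vwf-eGFP reporter, a bacterial artificial chromosome transgene in which the von Willebrand factor locus drives green fluorescent protein. The sort gate was Lin-Sca-1+c-Kit+CD150+CD48- without 7AAD staining. Young HSCs came from 1 mouse aged 2 to 3 months and old HSCs from 1 mouse aged 20 to 25 months, with no other treatment. Each cell was captured on a microfluidic chip, its polyA RNA was amplified over the whole transcript, and the library was read as single 51 base reads. Of 61 young and 74 old cells, the 52 young and 62 old cells within the study's quality limits were used.

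Each used cell held 273236 to 5688706 counted reads in the young group (median 2798990) and 276316 to 4086659 in the old group (median 2116024). Every value for an age rests on 1 mouse, so cells are not replicates, no test between ages was made, and age cannot be told apart from mouse and capture run. The mice also differed in Xist, the RNA that silences an X chromosome in female cells, which passed the expression limit in 50 of 52 young HSCs and in 8 of 62 old HSCs. Of 9 HSC markers, Cd48 among them, 6 were expressed in at least 50% of the young cells and 5 in at least 50% of the old cells. Slamf1, the gene of the CD150 that the gate requires, was expressed in only 9 of 52 young and 15 of 62 old cells. Procr was expressed in 11 young and 24 old cells. Cd48, which the gate excludes, was expressed in 1 young and 0 old cells (by a floor of 3 counts, 0 of 62 allows a share of up to 4.84%). Markers of other lineages in the table were expressed, at least 1 per cell, in 21 young and 37 old cells for 5 megakaryocyte and platelet genes and in 6 and 1 for 3 erythroid genes (Klf1 and Epor, with Hba-a1 at 0 in all cells). The B cell gene Cd79b was expressed in 12 and 16 cells. Of the T cell genes, Cd3d was expressed in 16 and 16 cells and Il7r in none. The 2 dendritic cell genes were expressed, at least 1 per cell, in 7 and 7 cells. Csf3r of the granulocyte list was expressed in every cell, Mpo in 2 and 1, and Elane in 0 and 1. The part of these markers in the values below was not tested. Reads carry no molecular identifiers, so the 95% exact Clopper-Pearson intervals given for shares of cells cover counting error only. A level is log2(CPM + 1), where CPM is the count scaled to the total of the cell, a difference is the mean level over old cells minus that over young cells, and a cell expresses a gene where the level is above 2. In these whole-cell values a lower mean can come from fewer expressing cells or from less RNA in each. Shares of expressing cells are given for many genes, and levels within expressing cells for few.

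The proteasome genes together took a similar share of the RNA in both ages. Their summed share of counted reads was lowest at 0.275%, with a median of 0.647% and a highest value of 1.09%, over the young HSCs. Over the old HSCs the lowest, median and highest shares were 0.290%, 0.664% and 1.28%. The ranges of the ages overlapped almost completely. A young HSC expressed between 16 and 40 of the 49 genes, with a median of 27.5, and an old HSC between 15 and 43, with a median of 26. The number of proteasome genes expressed followed the number of all genes expressed in the cell (Pearson r = 0.792 over 52 young and 0.819 over 62 old cells, which share library complexity), while the share of reads did so weakly (r = 0.343 and 0.141).

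**Figure D1:**
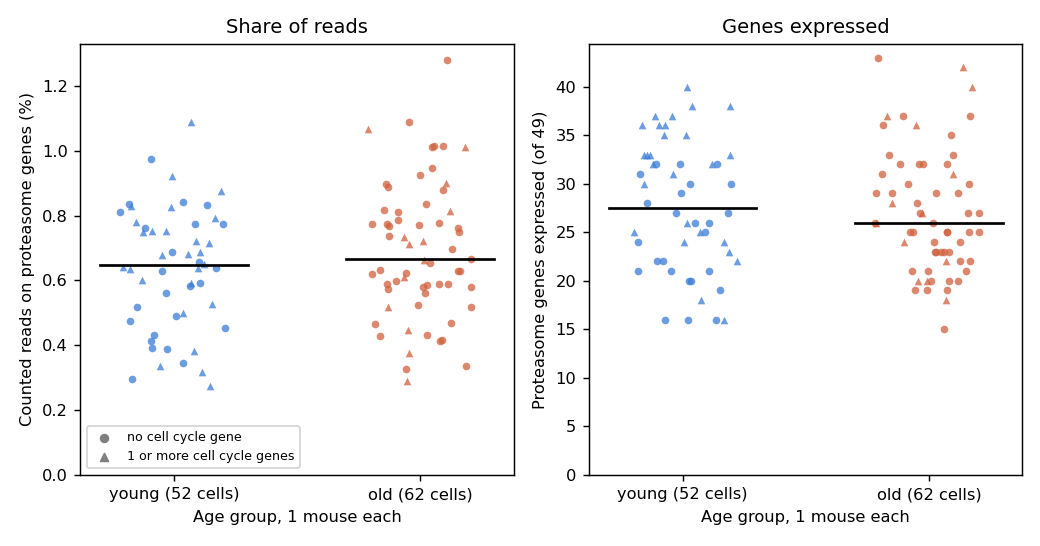
Share of counted reads on the 49 proteasome genes (left, percent) and number of them expressed (right) in each of 52 young and 62 old HSCs, with black lines at the medians; triangles mark cells in which any of the cell cycle genes Cdk1, Ccnb1, Ccna2 and Cdc25c was expressed. The medians were 0.647% and 0.664% of reads, and 27.5 and 26 genes, and the cells of the ages overlapped.

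No single cell expressed all 49 genes at this depth. Of the 49 genes, 4 were expressed in at least 90% of young HSCs and 6 in at least 90% of old HSCs, and 31 and 30 in at least 50%. Expression in at least 10% of all 114 cells was met by 47 genes, and counts of differences are over these. The others were Psmc3ip, expressed in 7 young and 3 old cells, and Psme2b, a near copy of the activator gene Psme2, expressed in 2 young and 1 old cells. Psme2b shared 68.9% of the 51 base stretches of its transcripts with those of other genes, Psme2 among them. Psma8 passed this limit only through the old cells.

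To compare genes with each other, mean CPM was divided by exon length in kilobases. The highest values in young HSCs were those of Psme1 at 253.8, Psmb6 at 220.6, Psma1 at 214.9 and Psmb8 at 214.8 CPM per kilobase. In old HSCs they were those of Psmb2 at 376.7, Psma7 at 305.4, Psmb8 at 274.7 and Psme1 at 232.7 CPM per kilobase. The lowest of the 47 in young HSCs was Psma8 at 5.46, and in old HSCs Psmd13 at 2.91 CPM per kilobase. Psme1 is an activator and Psma8 a subunit known from a single tissue, so the young extremes do not describe the subunits of 1 particle. The alpha subunits Psma1 to Psma7 are present in fixed numbers in the assembled complex. Their mRNA levels in young HSCs ran from 46.5 for Psma2 to 214.9 CPM per kilobase for Psma1. The order of the 47 genes was alike in both ages (Spearman's rho = 0.917, a description across genes, which are not independent).

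Between the ages, single proteasome genes moved in both directions, and the median over all 47 was near 0. Of the 47 genes, 14 were higher in old HSCs by at least 0.5 on the log2 scale, against 17.2% of all 9374 genes that met this limit. The lower genes, with a fall of at least 0.5, numbered 7, against 22.1% of all genes, and the other 26 lay between. The median difference of the proteasome genes was -0.02 (quartiles -0.31 and 0.54), and that of all genes was -0.07 (quartiles -0.44 and 0.32). As shares, 29.8% of the proteasome genes were higher and 14.9% lower, or 44.7% in either direction, against 39.3% of all genes. Of the 31 proteasome genes found in at least 50% of cells, 12 were higher, against 17.6% of 2971 such genes, and 4 lower, against 22.7%, which makes 51.6% in either direction, against 40.2%. Their median difference was 0.32, and that of all such genes -0.11. The 24 counted genes whose transcripts share no 51 base stretch with another gene had a median of 0.28, and the 23 others -0.24.

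**Figure D2:**
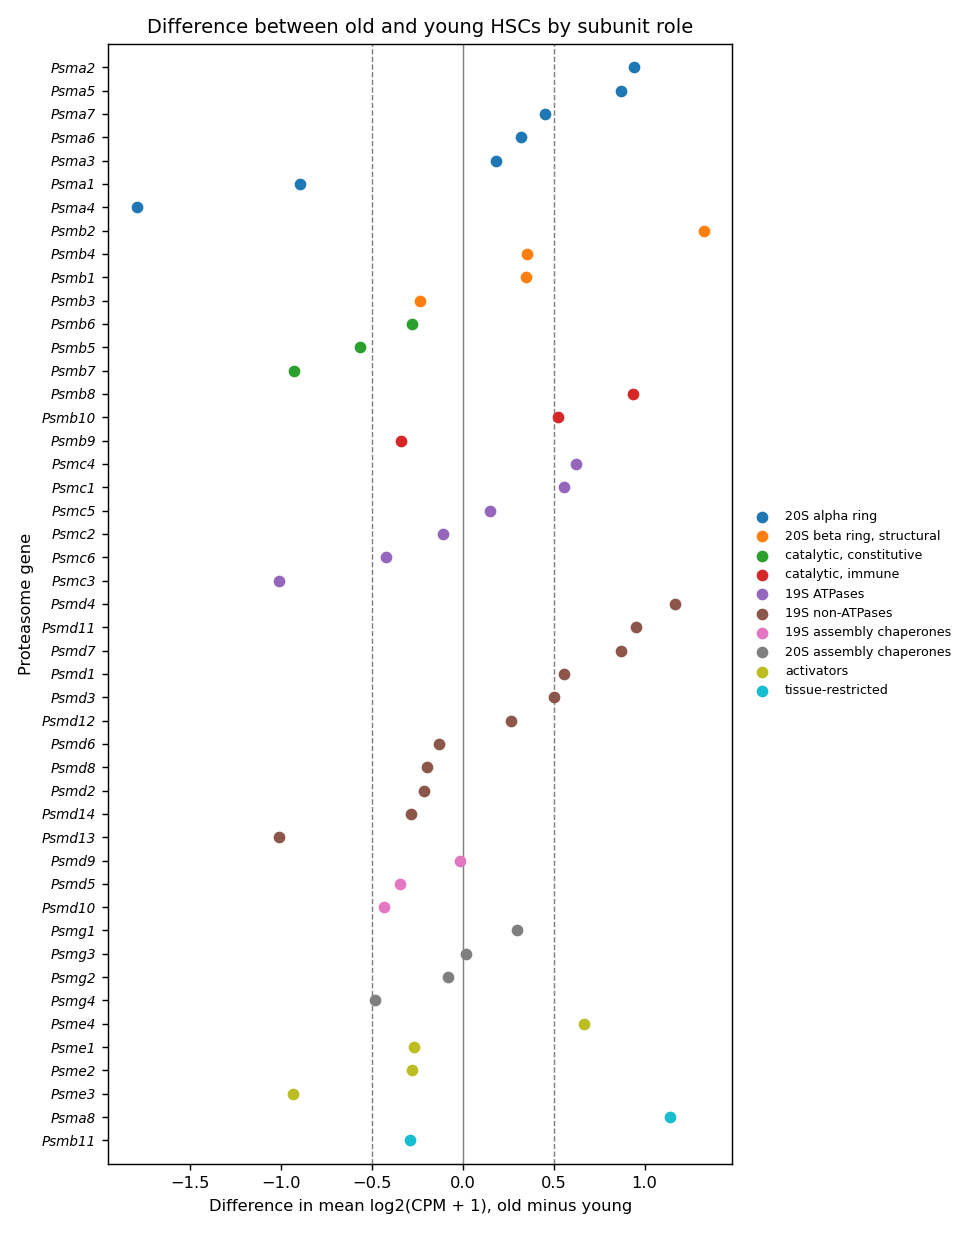
Old minus young HSCs in mean log2(CPM + 1), for the 47 proteasome genes counted, coloured by role (20S, core particle; 19S, regulatory particle), with dashed lines at 0.5 above and below 0. The values run from -1.79 for Psma4 to 1.33 for Psmb2, and 26 genes lie between the dashed lines.

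The alpha ring held the largest fall of the set. Psma4 (chr9:54950781-54958034, mm10), an alpha subunit, had levels from 0 to 10.5 with a median of 6.13 in young HSCs and from 0 to 9.47 with a median of 4.54 in old HSCs. The cells of the ages overlapped over nearly the whole range, and the old cells held more at 0. The mean fell from 5.91 ± 3.13 (SD, 52 cells) to 4.12 ± 3.59 (SD, 62 cells), a difference of -1.79. It was expressed in 84.6% of young (71.9 to 93.1%) and 58.1% of old HSCs (44.9 to 70.5%), while the mean level within expressing cells was 6.87 in both ages. Psma4 shared 30.9% of its 51 base stretches with the pseudogene Gm6542 and the overlapping gene AY074887, so its reads may be split between them. Psma1, another alpha subunit without such stretches, had the difference -0.90.

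Other alpha subunits were higher in old HSCs. Psma2 (chr13:14613242-14625673) had a median level of 5.21 (range 0 to 9.54) in young and 7.21 (0 to 10.2) in old HSCs, with means of 4.65 and 5.59. Expressing cells made up 71.2% of young and 69.3% of old HSCs, so that here the share of cells was alike and the level within expressing cells was not. Psma5 had the difference 0.87, from 4.97 to 5.84. Psma3, with the highest mean log2 level of all members (7.44 young, 7.62 old), was expressed in 51 of 52 young and 58 of 62 old HSCs, and Psma7 in 45 and 56, with differences of 0.18 and 0.45. The 7 alpha genes gave 2 higher, against 17.2% of all genes, 2 lower, against 22.1%, and 3 between. Their median difference was 0.32.

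The structural beta subunits, which carry no proteolytic site, held the largest rise. Psmb2 (chr4:126677637-126709715) had levels from 0 to 9.69 with a median of 5.96 in young HSCs and from 0 to 10.2 with a median of 8.03 in old HSCs. The ranges overlapped, with the middle of the old cells above that of the young. Its mean rose from 5.68 ± 2.87 (SD, 52 cells) to 7.00 ± 2.87 (SD, 62 cells), a difference of 1.33, with 86.5% of young and 90.3% of old cells expressing it. Leaving out any 1 cell kept the difference between 1.21 and 1.44. Psmb1, Psmb4 and Psmb3 had the differences 0.35, 0.35 and -0.24. Thus 1 of 4 was higher by 0.5, against 17.2% of all genes, and the median was 0.35.

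Among the catalytic subunits, the constitutive genes had lower and 2 of the 3 immune genes had higher mean levels in old HSCs. Psmb7, which carries the trypsin-like site, had a median level of 2.19 (range 0 to 9.20) in young and 0.44 (0 to 9.81) in old HSCs. The ranges were alike, and the old cells held more at or near 0, with 27 of 52 young (51.9%, 37.6 to 66%) and 22 of 62 old cells (35.5%, 23.7 to 48.7%) expressing it. Psmb5, which carries the chymotrypsin-like site, had a median of 5.28 (0 to 9.13) in young and 2.49 (0 to 10.5) in old HSCs. Psmb6, which carries the caspase-like site, had medians of 6.29 and 6.42. The mean differences were -0.93 for Psmb7, -0.57 for Psmb5 and -0.28 for Psmb6.

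Psmb8, the immune subunit that takes the place of Psmb5, had levels from 0.42 to 10.7 with a median of 7.15 in young HSCs and from 0.39 to 10.6 with a median of 8.52 in old HSCs. Its mean rose from 6.66 ± 2.91 (SD, 52 cells) to 7.60 ± 2.56 (SD, 62 cells), a difference of 0.94. It was expressed in 47 of 52 young (90.4%, 79.0 to 96.8%) and 60 of 62 old HSCs (96.8%, 88.8 to 99.6%). Psmb8 therefore had reads in every cell of both ages, with few cells below the limit for expression. On summed counts its log2 ratio was 0.45. Psmb10, which takes the place of Psmb7, had a median level of 5.47 in young and 6.84 in old HSCs and a difference of 0.53. Psmb9, which takes the place of Psmb6 and lies beside Psmb8 in the MHC class II region, had medians of 2.95 and 2.05 and a difference of -0.34.

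**Figure D3:**
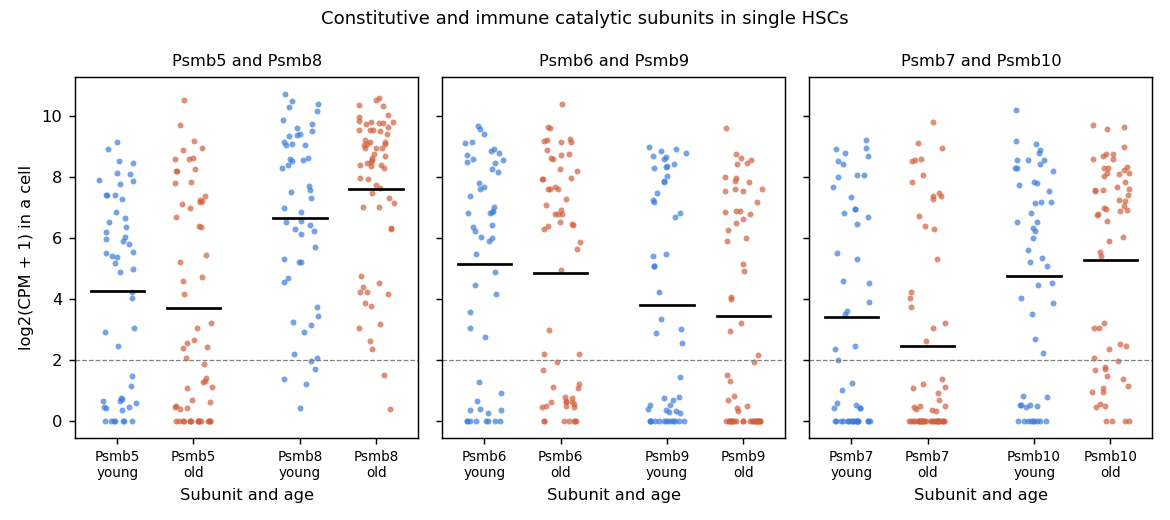
log2(CPM + 1) of each constitutive catalytic subunit and the immune subunit that replaces it, with 1 point per cell for 52 young and 62 old HSCs, black lines at the means and a dashed line at 2, above which a cell was taken to express the gene. The mean of Psmb8 was 6.66 in young and 7.60 in old HSCs, and that of Psmb5 was 4.27 and 3.70, with the cells of the ages overlapping for every gene.

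These means did not carry over to all scales. On the log2 ratio of summed counts, in which a cell counts by its reads, Psmb5 and Psmb7 had the values 0.01 and 0.20, and Psmb10 had -0.05. Per kilobase, the immune genes made up 50.6% of the summed reads of the catalytic subunits in young and 51.6% in old HSCs. Within the pair of Psmb8 and Psmb5 the immune share of summed reads was 65.8% in young and 72.4% in old HSCs, but 68.2% and 66.7% when each cell had equal weight. For Psmb9 and Psmb6 it was 27.5% and 20.1%, and 27.9% and 22.2% with equal weight, so that this pair kept its direction. For Psmb10 and Psmb7 it was 62.2% and 58.2%, and 57.4% and 66% with equal weight. Psmb8 without Psmb5 was expressed in 16 of 52 young and 27 of 62 old HSCs, and the reverse in 3 and 1 cells. Psmb10 without Psmb7 was expressed in 17 young and 29 old HSCs, and the reverse in 8 and 6 cells. For Psmb9 without Psmb6 the order was the other way, with 7 young and 10 old HSCs, and the reverse in 16 and 18 cells. In sparse counts a missing partner gene can be one that was not captured. Psmb5 shared 56.2% of its 51 base stretches with other genes, including its pseudogene, Psmb7 27.9% with Nek6, and Psmb9 12.4% with its neighbour Tap1.

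Interferon-induced genes stand beside the immune subunits as a list of 13, of which 12 met the 10% limit. In old HSCs 3 of the 12 (25%) were higher by at least 0.5, against 17.2% of all genes, and none of the 12 was lower by that much, against 22.1%, with a median difference of 0.41. Irf1, a transcription factor that drives the immune subunits under interferon, had the largest difference at 1.60, with mean levels of 2.68 and 4.28, and was found in 32.7% of young HSCs and 66.1% of old HSCs. Within the cells that expressed Irf1, its mean level was 7.17 in young and 6.15 in old HSCs. The MHC class I genes H2-D1, B2m and H2-K1 had differences of 0.72, 0.52 and 0.50, the last just under the limit. The interferon-induced genes Isg15 and Ifit1 had differences of -0.23 and -0.09.

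Among the ATPases of the regulatory particle, which unfold the substrate, Psmc3 (chr2:91054016-91059438) had the largest fall. Its levels ran from 0 to 10.1 with a median of 4.45 in young HSCs and from 0 to 10.7 with a median of 2.84 in old HSCs. The ranges were alike, and the mean went from 4.37 to 3.36, a difference of -1.01. Among cells without the cell cycle genes described further on, the difference was -0.07. It was expressed in 65.4% of young (50.9 to 78.0%) and 54.8% of old HSCs (41.7 to 67.5%). Psmc4 and Psmc1 were higher in old HSCs, with differences of 0.62 and 0.56. Psmc6, Psmc2 and Psmc5 had differences of -0.42, -0.11 and 0.15, and the median of the 6 ATPases was 0.02.

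Of the 11 other subunits of the regulatory particle, 5 were higher in old HSCs by at least 0.5, against 17.2% of all genes. Only 1 was lower, against 22.1% of all genes, and the median difference was 0.26. Psmd4 (chr3:95032688-95042614), a receptor for ubiquitin chains, had a median level of 0.89 (range 0 to 9.78) in young and 3.52 (0 to 9.63) in old HSCs. The ranges were alike, but more old cells held the transcript, with 42.3% of young HSCs (28.7 to 56.8%) and 62.9% of old HSCs (49.7 to 74.8%) expressing it and a difference in means of 1.17. Psmd11, a scaffold subunit of the lid, was found in 46.1% of young HSCs and 61.3% of old HSCs with a difference of 0.96, and 18.5% of its stretches were shared with other genes. Without the cycling cells its difference was 0.17. Psmd7, the partner of the deubiquitinase Psmd14 in the lid, had a difference of 0.87 but 0.06 on the log2 ratio of summed counts, while Psmd14 itself had -0.29. Psmd1, a large scaffold subunit of the base, had 0.56 and Psmd3 0.50, and Psmd2, the other large base subunit, had -0.21.

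Psmd13 (chr7:140882394-140898642), a lid subunit, was the one lower gene in this group. Its median was 0 in both ages, its highest level was 8.18 in young and 7.38 in old HSCs, and its mean fell from 1.88 ± 2.63 (SD, 52 cells) to 0.86 ± 1.72 (SD, 62 cells), a difference of -1.01. It was expressed in 19 of 52 young (36.5%, 23.6 to 51%) and 10 of 62 old HSCs (16.1%, 8.02 to 27.7%), and shared 15.7% of its stretches with its neighbour Sirt3. Psmd8, Psmd6 and Psmd12 had differences of -0.20, -0.13 and 0.26.

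The chaperones that build the complex had differences under 0.5 in size over all 114 cells. Those of the regulatory particle, Psmd5, Psmd9 and Psmd10, had differences of -0.34, -0.02 and -0.43. Without the cycling cells Psmd5 had -1.0. Those of the core particle, Psmg1 to Psmg4, had differences between -0.48 for Psmg4 and 0.30 for Psmg1, and a median of -0.03. Apart from Psmd9, in 82.7% of young and 79.0% of old HSCs, these genes were expressed in under 50% of cells, from Psmg1 in 19.2% and 24.2% and Psmg3 in 21.1% and 17.7% to Psmg2 in 42.3% and 40.3% and Psmg4 in 44.2% and 35.5%.

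The activators open the core particle in place of the regulatory particle. Psme1 and Psme2, the interferon-induced subunits of the cytoplasmic activator, had mean levels of 7.11 and 6.84 and of 4.95 and 4.67 in young and old HSCs, with differences of -0.27 and -0.28. Psme1 was expressed in 51 of 52 young and 57 of 62 old HSCs. Psme3, the nuclear activator, had a median level of 0.69 (range 0 to 10.2) in young and 0 (0 to 9.55) in old HSCs, and its mean fell by 0.93 on the log2 scale. Psme4, the activator known for histone degradation, had medians of 1.71 and 2.77 and a difference of 0.67, and was expressed in 44.2% of young and 56.5% of old HSCs. Psme3 and Psme4 thus moved in opposite directions, with the cells overlapping for both.

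Of the subunits known from single tissues, Psma8, the alpha subunit of the testis, was expressed in 3 of 52 young (5.77%, 1.21 to 15.9%) and 14 of 62 old HSCs (22.6%, 12.9 to 35%). Its median level was 0 in both ages, its highest was 8.71 and 8.95, and its mean was 0.39 and 1.53, a difference of 1.14. No 51 base stretch of its transcripts was found in another gene, its relative Psma7 included.

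Psmb11 is known as the catalytic subunit of the thymic cortex, yet reads were counted for it in HSCs. Whether these reads came from Psmb11 mRNA was not tested. By its counts, Psmb11 was the one proteasome gene expressed in every cell, 52 of 52 young and 62 of 62 old HSCs. Its levels ran from 4.52 to 6.94 (median 5.97) in young and from 3.56 to 7.11 (median 5.75) in old HSCs. The groups overlapped, with a difference of -0.29. Its SD over the 114 cells was 0.709, while the SD of the other 46 genes ran from 1.83 to 3.79 with a median of 3.34, and of 430 genes within 0.5 of its mean level only 5 had a smaller SD. Its counts also rose with the reads of the cell, with r = 0.771 between log counts and log depth over 114 cells, against a median of 0.121 for the other members, which share these libraries. Per kilobase it was among the lowest, at 15.5 CPM in young and 12.9 in old HSCs.

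Part of the Psmb11 transcript was not unique to it. Of 4197 stretches of 51 bases along its 4247 base transcript (GENCODE, mm10), 140 also occurred in transcripts of other genes, 567 genes in all and up to 242 for a single stretch. All 140 lay between bases 2220 and 4189, beyond the longest open reading frame at bases 18 to 926. The assembly chaperones Psmd5 and Psmd9 held such stretches too, shared with 501 and 15 other genes and likewise beyond the reading frame. The genes whose levels followed Psmb11 most closely over the cells of each age were Cbln3, Gm10636, Ttyh1, B4galnt2 and Gm15910, with r from 0.682 to 0.750 among 2970 candidates found in at least 50% of cells. Where along the transcript the reads of Psmb11 lay was not tested.

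**Figure D4:**
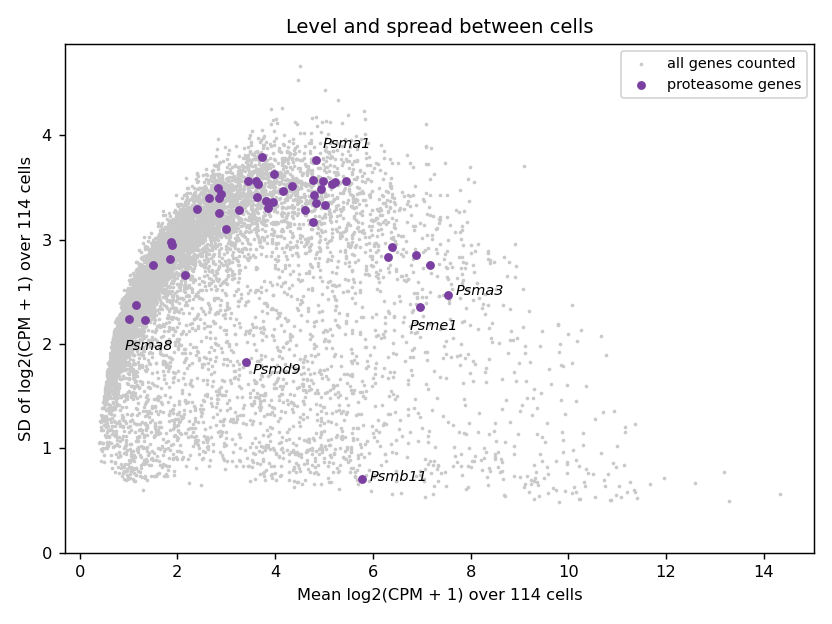
SD against mean of log2(CPM + 1) over 114 cells for 9374 genes (grey) and the 47 proteasome genes among them (purple), with 6 of them named. Psmb11 lies apart from the other proteasome genes at an SD of 0.709, where the next lowest, Psmd9, is at 1.83.

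These values moved with the cell cycle genes, more so in young than in old HSCs. A set of 4 cell cycle genes, Ccna2, Ccnb1, Cdk1 and Cdc25c, was used to mark cycling cells, of which there were 27 of 52 in the young and 13 of 62 in the old group. Among young HSCs, cells with such a gene expressed a median of 33 proteasome genes and 4614 genes in all, and cells without expressed 25 and 3862. Of the 47 proteasome genes, 33 were higher by at least 0.5 in the young cells with a cycle gene, against 38.1% of all genes, and 3 were lower, against 12.8%. The median difference between these cells was 0.84 for the proteasome genes and 0.25 for all genes. Among these young cells all 6 ATPases (median 1.90), all 4 structural beta genes (median 1.03) and all 3 constitutive catalytic genes (median 2.13) were higher by at least 0.5. Psmc6 was expressed in 19 of 27 young cells with a cycle gene and 8 of 25 without, Psmb6 in 23 and 14, and Psmb5 in 23 and 11. Psmb8 had the opposite sign, at -0.57, and was expressed in 25 and 22 of these cells. The other immune genes, Psmb9 and Psmb10, were higher in the young cells with a cycle gene, at 1.38 and 0.79. The other genes lower by at least 0.5 were Psmd11 at -1.22 and Psmd5 at -1.13. Among old HSCs the median difference was 0.17 for the proteasome genes and 0.04 for all genes, with 17 proteasome genes higher, against 26.7% of all genes, and 14 lower, against 22.2%. The role pattern of the young cells was only partly kept in these old cells. Psmb1, Psmb3 and Psmb4 had lower means with a cycle gene (6.43, 2.86 and 4.23) than without (7.21, 4.38 and 5.12), as had Psmc4 and Psmc5. Psmb2, the other ATPases and the constitutive catalytic genes had higher means with a cycle gene.

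Among the cells without any of the 4 cycle genes, 25 young and 49 old, most of the complex had higher means in old HSCs. Of 47 proteasome genes, 25 were higher in old HSCs by at least 0.5, against 28.2% of all genes, and 7 were lower, against 19.1%. Psma8 was among the 25, at 0.68. The median difference was 0.56 for the proteasome genes and 0.07 for all genes. Psmb2 stood at 1.79, with mean levels of 5.20 and 6.98, Psmd7 at 1.77, Psmc4 at 1.71 and Psma5 at 1.71. All 4 structural beta genes, all 3 immune catalytic genes and 5 of the 6 ATPases were higher, the ATPases with a median of 0.76. Psmb5 turned from -0.57 to 0.48 and Psmb6 from -0.28 to 0.74, while Psmb7 stayed at -0.66. The 7 lower genes were Psma4 at -1.50, Psmd5 at -1.0, Psma1 at -0.99, Psmd13 at -0.91, Psmb7, Psmb11 at -0.55 and Psme3 at -0.55. Psmc3 and Psmd11, at -0.07 and 0.17, were no longer past 0.5. The median number of proteasome genes expressed was 25 in both ages among these cells.

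**Figure D5:**
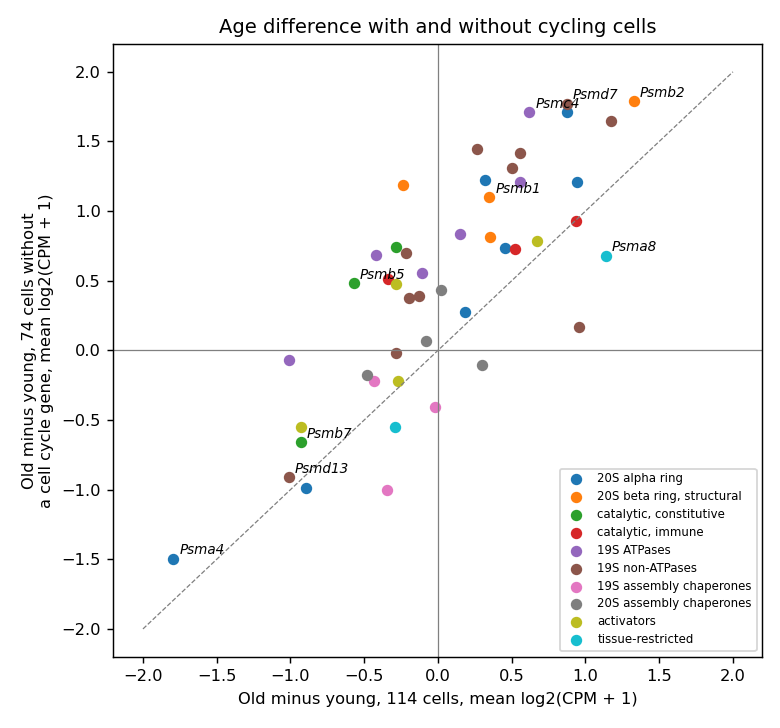
Old minus young HSCs in mean log2(CPM + 1), of each proteasome gene over all 114 cells (horizontal) and over the 74 cells without Ccna2, Ccnb1, Cdk1 or Cdc25c (vertical), coloured by role (20S, core particle; 19S, regulatory particle), with a dashed line where both are equal. On the vertical axis 25 genes lie at 0.5 or above, against 14 on the horizontal, and Psma4 and Psmd13 are below 0 on both axes.

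Genes that work with the proteasome were followed as a list of 33, of which 31 met the 10% limit. In old HSCs 10 (32.3%) were higher by at least 0.5, against 17.2% of all genes, and 5 (16.1%) lower, against 22.1%, and the median difference was 0.14. Zfand5, which binds the proteasome and raises its activity, had the largest rise, from 4.65 to 6.59, a difference of 1.94. AI314180 (Ecpas), an adaptor of the proteasome, had 1.32, Psmf1, an inhibitor, 0.995, and Pomp, the factor that matures the core particle, 0.54. Nfe2l1, the transcription factor that raises proteasome genes when degradation is blocked, had 1.15 and was expressed in 36.5% of young and 50% of old HSCs. Its partner Mafk had 0.82, and its relative Nfe2l2 had 0.35. The polyubiquitin gene Ubb had 0.15. The lower genes were the ubiquitin ligase Ube3a (-1.66, from 5.39 to 3.74), Bag6 (-0.96), the proteasome-bound deubiquitinase Uchl5 (-0.77), the ubiquitin-activating enzyme Uba1 (-0.64) and Ngly1, which Nfe2l1 needs to become active (-0.53).

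Nfe2l1 and Nfe2l2 bind, with small Maf proteins, the antioxidant response element, so promoters were searched on both strands for its core, TGACNNNGC. RefSeq promoters (GRCm38.p6, the same assembly as mm10) from 250 bases before to 50 after the start were found for 41 of the 49 genes, 44 promoters in all. The core was in 6 of the 44 (13.6%), against 12.4% of 32851 promoters, so it was about as frequent as elsewhere. The stretches of 60 bases that hold it before the start in Psmb5, Psmc6, Psmd9 and Psmd12 are shown, 5′ to 3′ on the strand of the gene, because these genes differed in their age differences (-0.57, -0.42, -0.02 and 0.26) while sharing the core. Capitals mark the core or, in Psmc6 and Psmd12, its reverse complement.
Psmb5 (chr14:54618009-54618068, minus strand): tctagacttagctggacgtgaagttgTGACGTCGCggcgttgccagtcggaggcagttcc
Psmc6 (chr14:45329574-45329633, plus strand): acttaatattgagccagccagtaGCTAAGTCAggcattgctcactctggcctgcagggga
Psmd9 (chr5:123228130-123228189, plus strand): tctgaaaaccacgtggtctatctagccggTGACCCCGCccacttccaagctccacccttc
Psmd12 (chr11:107479278-107479337, plus strand): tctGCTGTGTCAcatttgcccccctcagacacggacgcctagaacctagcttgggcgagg

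The median age difference was -0.15 for the 6 genes with the core and -0.11 for 33 genes with a promoter that lacked it. The CCAAT box, CCAAT, was in 34.1% of the proteasome promoters and 37.4% of all, and the cAMP response element, TGACGTCA, was in 0 of 44 and 1.79% of all. Searched later, an ETS site, CCGGAAGT, was in 22.7% of the proteasome promoters and 3.89% of all. An interferon response core, GAAA and GAAA with a pair of free bases between, was in 11.4% and 3.44%. The genes with this interferon core were Psmb3, Psmd4, Psmd9, Psme1 and Psmg4, and the immune genes Psmb8, Psmb9 and Psmb10 were not among them. The genes with the ETS letters were Psma6, Psmc1, Psmc2, Psmd12, Psmd13, Psmd6, Psme3, Psme4 and Psmg3. They included genes that were higher and genes that were lower in old HSCs, with a median difference of 0.02. These matches describe the letters of the window only.

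From cell to cell, proteasome genes varied together only weakly. Over pairs of the 30 genes found in at least 50% of cells, Psmb11 left out, the median r was 0.0913 in young and 0.0470 in old HSCs, and over pairs of all 2971 such genes it was 0.0302 and 0.0328. The points share library complexity, and correlations of this size in sparse counts are no finding. The genes whose levels were most like the summed proteasome genes in each age were Ndufs6, Pfn1, Actg1, Bzw2 and Ccdc55, with the lower of the r of the ages at 0.337 to 0.351 among 2940 genes.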

How the data were processed

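The authors mapped single 51 base reads to mm10 (TopHat2 2.0.10, per the submitters' processing notes), kept 1 alignment for each read and obtained counts for RefSeq genes from rpkmforgenes; the deposited values are raw counts per gene and cell, without normalization. Cells were kept by the study's limits (at least 500000 mapped reads, at most 10% mitochondrial reads, at least 3000 genes at RPKM of 1), which left 114 of 135. From the counts, CPM over each cell's total and log2(CPM + 1) were computed with Python 3.11.15, numpy 2.4.6, pandas 2.3.3 and scipy 1.17.1. Genes expressed in at least 10% of cells were counted, and a difference of 0.5 named. With 1 mouse per age no test was made. Genes named with values were the 5 largest rises and falls, the catalytic, activator and tissue-restricted genes, and the 2 with the highest level in each role; others are given by their differences, and all members and lists were chosen with earlier results of these data known. Exon lengths and shared 51 base stretches came from GENCODE transcripts. The sign of a difference was tested on simulated data with changes larger than 0.5, so the 0.5 limit itself was not tested there. Normalization factors of edgeR 4.0.16 and DESeq2 1.42.0 (R 4.3.3), thinning to 250000 reads, a pseudocount of 0.1 and other filters served as alternatives. Counting was not stated to use strand, and reads of near-identical or overlapping genes were not separated.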

Additional observations from a re-analysis of the deposited data

How the results depend on the processing

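No paired analysis was possible because each age is 1 mouse, and no mouse could be left out. The count of lower genes was 7 of 47 in the reported setting. With cells of at least 1000000 counted reads it was 11 of 48, where 23.5% of all genes were lower. With a pseudocount of 0.1 CPM it was 12, where 31.2% of all genes were lower. Among the 31 genes found in at least 50% of cells it was 4, against 22.7% of all such genes. In a setting chosen after seeing the data, the 24 genes without shared 51 base stretches, it was 3, against 22.1% of all genes. The count of higher genes, 14, was 8 among those 24, against 17.2% of all genes, with Psma8 in both counts. Without cells that express a cycle gene the count of higher genes was 25, where 28.2% of all genes were higher. In this setting the median of the structural beta genes was 1.145, of the ATPases 0.76 and of the constitutive catalytic genes 0.48, the value of Psmb5. The median of all genes moved from -0.07 to 0.07, so changes there are read against that shift. On summed counts the constitutive catalytic genes had a median of 0.13 and the immune catalytic genes -0.047, the value of Psmb10, with Psmb5 at 0.0055 and Psmb7 at 0.20. The rank correlation between the ages was 0.850 without division by length. Of the recomputed differences of single named genes, 237 stood for a ratio within a factor of 1.5 of the reported one without turning a difference of 0.5 or more, 20 moved by more and 4 turned such a difference. Counting small differences too, 17 had another sign than reported, in 10 genes; the cause of these changes was not tested. Depth limits the genes found in few cells, where a missing transcript may be one that was not captured.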
